A study of Mus musculus with 60 samples.

Results

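The 10 genes described here carry the cyclic AMP signalling of striatal medium spiny neurons. They were taken from the deposited count table by gene name, and each of the 10 names matched 1 of its 21950 genes. They are Gnal and Gng7 (G protein subunits), Adcy5 (an adenylyl cyclase), Pde10a and Pde1b (phosphodiesterases), Ppp1r1b, Arpp21 and Ptpn5 (targets of protein kinase A), and Rgs9 and Rasd2 (modulators of G protein signalling). The RNA came from hippocampus, prefrontal cortex and striatum, separated by microdissection from frozen brains of mice 65 to 76 days old. One group was Adgrl3 -/- (KO) and the other Adgrl3 +/+ (WT). Adgrl3, also called Lphn3, encodes the adhesion receptor latrophilin-3. Each genotype had 12 mice and 10 libraries per region, 60 libraries in all. Which mice gave which library, the altered part of the gene, the strain, the sex and any pooling were not stated in the sources used here.

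Medium spiny neurons are the projection neurons of the striatum. In them the stimulatory G protein alpha subunit encoded by Gnal couples dopamine D1 receptors and the adenosine receptor encoded by Adora2a to the adenylyl cyclase encoded by Adcy5, which makes cyclic AMP, while D2 receptors act through inhibitory G proteins. Cyclic AMP activates protein kinase A, which phosphorylates DARPP-32, the product of Ppp1r1b and an inhibitor of protein phosphatase 1. Phosphodiesterases end the signal by hydrolysing cyclic AMP.

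Library totals ran from 38985577 to 51387833 counted reads, and the smallest count of any of the 10 genes in any library was 501. Levels are in CPM, counts scaled to library size by TMM. The table's features span each gene with its introns, and levels are compared between samples of a gene and never between genes. Adgrl3 was lower in KO in each region, by 1.84 ± 0.044 (SE) on the log2 scale in hippocampus, 2.09 ± 0.13 in prefrontal cortex and 1.96 ± 0.062 in striatum, with highest KO levels of 39.6, 44.2 and 46.9 CPM below lowest WT levels of 117, 126 and 144. The dissections differed in their marker genes. All 21 medium spiny neuron markers were higher in WT striatum than in either other region, 10 of 11 hippocampal markers were lower in striatum than in hippocampus, and 11 of 12 cortical excitatory neuron markers were lower in striatum than in prefrontal cortex. Other cell types moved with the regions too: of 8 oligodendrocyte markers 7 were higher in WT striatum than in hippocampus (median 1.10) and 8 than in prefrontal cortex (2.34), and of 6 choroid plexus markers 4 were lower than in hippocampus (-1.47) and 5 higher than in prefrontal cortex (4.73). Their part in the results was not tested. In hippocampus 5 libraries (WT 1, 8 and 9, KO 2 and 6) had higher levels of striatal markers such as Adora2a than the other 15. In prefrontal cortex olfactory bulb markers varied between libraries.

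Promoter sequences of these genes are shown first, as a description. Windows of 250 bases before a RefSeq start site (GRCm38.p6) were used for 8 of the 10 genes. There were 21 such windows, several of them at alternative starts within a gene. No window was available for Ppp1r1b, and Gnal was left out of the search. Of the windows, the 5 that overlapped no annotated gene are printed 5′ to 3′ on the gene's strand, ending at the base before the start site. Capitals mark GGGCGG, the GC box, and TATAAA, the TATA box, on either strand.
Adcy5 (chr16:35154614-35154863, plus strand): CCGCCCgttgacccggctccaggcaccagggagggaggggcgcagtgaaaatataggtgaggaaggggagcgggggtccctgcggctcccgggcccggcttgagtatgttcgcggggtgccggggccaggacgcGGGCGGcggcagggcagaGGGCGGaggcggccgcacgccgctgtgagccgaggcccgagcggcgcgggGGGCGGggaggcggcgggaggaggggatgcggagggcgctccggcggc
Pde1b (chr15:103502784-103503033, plus strand): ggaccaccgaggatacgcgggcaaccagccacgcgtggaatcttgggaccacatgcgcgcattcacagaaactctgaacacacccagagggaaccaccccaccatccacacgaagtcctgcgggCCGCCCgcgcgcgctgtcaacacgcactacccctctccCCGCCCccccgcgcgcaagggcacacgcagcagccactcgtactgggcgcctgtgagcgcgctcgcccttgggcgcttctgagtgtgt
Ptpn5 (chr7:47133685-47133934, minus strand): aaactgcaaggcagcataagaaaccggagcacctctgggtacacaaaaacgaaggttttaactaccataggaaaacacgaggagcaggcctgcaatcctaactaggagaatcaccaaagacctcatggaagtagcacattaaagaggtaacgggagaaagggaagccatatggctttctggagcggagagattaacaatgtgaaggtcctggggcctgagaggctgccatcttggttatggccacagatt
Rasd2 (chr8:75213694-75213943, plus strand): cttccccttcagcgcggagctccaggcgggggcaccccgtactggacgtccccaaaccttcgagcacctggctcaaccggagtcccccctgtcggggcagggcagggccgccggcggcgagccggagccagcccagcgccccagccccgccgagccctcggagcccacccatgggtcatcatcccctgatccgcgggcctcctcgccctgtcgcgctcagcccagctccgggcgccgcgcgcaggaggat
Rgs9 (chr11:109298182-109298431, minus strand): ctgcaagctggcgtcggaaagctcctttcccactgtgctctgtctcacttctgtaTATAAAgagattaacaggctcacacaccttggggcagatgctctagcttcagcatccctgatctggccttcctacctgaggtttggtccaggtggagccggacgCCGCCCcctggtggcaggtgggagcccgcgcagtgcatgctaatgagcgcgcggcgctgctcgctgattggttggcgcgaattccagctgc
A full cyclic AMP response element, TGACGTCA, was found in 0 of the 21 windows, against 1.55% of all 32851 RefSeq windows of that length. Its first 5 letters, TGACG on either strand, occurred in 3 windows of Arpp21 and Gng7 (17.8% of all windows). GGGCGG occurred in 6 windows, those of Adcy5, Gng7, Pde10a, Pde1b, Ptpn5 and Rgs9 (32.7% of all windows). TATAAA occurred in 1, that of Rgs9 (12.4% of all windows). The Rgs9 window held TATAAA 195 bases before the start site, and the Rasd2 window, at 75.2% G and C, held no match to any of the 4 motifs. These matches describe letters in these windows and say nothing of binding.

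All 10 genes were higher in striatum than in either other region, in both genotypes. In WT, 10 of 10 passed the region test (edgeR quasi-likelihood, Benjamini-Hochberg adjusted p under 0.05 and a log2 difference of at least 1) as higher than in hippocampus, a call that 5.12% of the tested genes received, and 10 of 10 as higher than in prefrontal cortex, where the background was 7.07%. In KO the counts were again 10 and 10, with backgrounds of 5.76% and 7.64%. Every striatal library lay above every hippocampal and prefrontal cortex library for each of the 10 genes, which held for 5.49% of the genes tested. These genes are known for their expression in striatum. In bulk tissue fewer cells of a type and less RNA per cell cannot be told apart. The medians of the 10 WT differences were 3.08 against hippocampus and 3.29 against prefrontal cortex, beside medians of -0.0029 and 0.013 over all genes tested.

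Gnal (ENSMUSG00000024524.16, chromosome 18, 67088336 to 67226792, plus strand), which encodes the alpha subunit of the G protein Golf, had 783 to 1056 CPM (median 836) in the WT libraries and 773 to 1054 CPM (median 858) in the KO libraries of the striatum. Outside the striatum its level was 176 ± 19.2 CPM in WT and 181 ± 11.01 in KO hippocampus, and 204 ± 8.03 and 211 ± 11.7 in prefrontal cortex (SD, n = 10 each). In WT its striatal level was 4.90-fold (95% interval 4.54 to 5.30) that of hippocampus and 4.24-fold (95% interval 3.92 to 4.57) that of prefrontal cortex. The Gnal feature contains Chmp1b on the same strand, so reads of Chmp1b can count for both, and Chmp1b was itself at 39.4 CPM in striatum, 22.1 in hippocampus and 22.4 in prefrontal cortex. Gng7 (ENSMUSG00000048240.14, chromosome 10, 80948624 to 81014945, minus strand), the gamma subunit that assembles with Golf, had 846 to 1200.3 CPM (median 957) in the WT libraries and 784 to 1253 CPM (median 963) in the KO libraries. In hippocampus and cortex it was at 199.6 ± 15.6 CPM in WT and 199.8 ± 16.00 in KO hippocampus, and 90.7 ± 3.97 and 91.1 ± 4.98 in prefrontal cortex. Outside the striatum Gng7 differed between the regions: its lowest hippocampal library, at 172 CPM, lay above the highest prefrontal library, at 103.

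Adcy5 (ENSMUSG00000022840.8, chromosome 16, 35154877 to 35305737, plus strand), the main adenylyl cyclase of the striatum, had 1266 to 1743 CPM (median 1347) in the WT libraries and 1035 to 1909.8 CPM (median 1323) in the KO libraries. Outside the striatum it reached 167 ± 32.1 CPM in WT and 172 ± 26.6 in KO hippocampus, and 168 ± 11.7 and 173 ± 13.1 in prefrontal cortex. The striatal level in WT was 8.28-fold (95% interval 7.34 to 9.34) that of hippocampus and 8.28-fold (95% interval 7.34 to 9.35) that of prefrontal cortex.

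Of the phosphodiesterases, Pde10a (ENSMUSG00000023868.15, chromosome 17, 8525372 to 8986648, plus strand), which hydrolyses both cyclic AMP and cyclic GMP, had 1435 to 2190.0 CPM (median 1630.0) in the WT libraries and 1274 to 2204 CPM (median 1625) in the KO libraries. The other regions had 99.1 ± 22.2 CPM in WT and 104 ± 26.7 in KO hippocampus, and 68.5 ± 14.1 and 65.6 ± 10.9 in prefrontal cortex. Its striatal level in WT was 16.9-fold (95% interval 14.1 to 20.2) that of hippocampus and 24.5-fold (95% interval 20.3 to 29.4) that of prefrontal cortex. Pde1b (ENSMUSG00000022489.5, chromosome 15, 103503298 to 103530052, plus strand), a phosphodiesterase activated by calcium and calmodulin, had 975 to 1429 CPM (median 1088) in the WT libraries and 883 to 1436 CPM (median 1072) in the KO libraries. For Pde1b the other regions had 128 ± 19.3 CPM in WT and 126 ± 19.2 in KO hippocampus, and 125 ± 4.56 and 125 ± 8.47 in prefrontal cortex. The lowest striatal library exceeded the highest library of the other regions 7.29-fold for Pde10a and 4.90-fold for Pde1b.

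Among the targets of protein kinase A, Ppp1r1b (ENSMUSG00000061718.12, chromosome 11, 98348404 to 98357796, plus strand) had 1112 to 1633 CPM (median 1207) in the WT libraries and 1061 to 1746 CPM (median 1275) in the KO libraries. Levels in the other regions were 63.98 ± 31.7 CPM in WT and 57.1 ± 34.5 in KO hippocampus, and 48.2 ± 6.58 and 57.96 ± 7.25 in prefrontal cortex. The WT hippocampal libraries had an SD of 31.7 CPM around a mean of 63.98, with a few high libraries described below. Arpp21 (ENSMUSG00000032503.18, chromosome 9, 112065091 to 112235938, minus strand), a phosphoprotein that regulates calmodulin signalling, had 853 to 1251 CPM (median 976) in the WT libraries and 891 to 1216 CPM (median 1033) in the KO libraries. Its levels elsewhere were 168 ± 15.8 CPM in WT and 183 ± 23.7 in KO hippocampus, and 384 ± 25.03 and 406 ± 34.3 in prefrontal cortex. Its striatal excess over prefrontal cortex was the smallest of the 10, 2.60-fold (95% interval 2.40 to 2.82). Ptpn5 (ENSMUSG00000030854.17, chromosome 7, 47077795 to 47133684, minus strand), the striatum-enriched tyrosine phosphatase STEP, had 466 to 720.0 CPM (median 540.0) in the WT libraries and 521 to 616 CPM (median 548) in the KO libraries. Elsewhere it was at 121 ± 13.1 CPM in WT and 119 ± 8.63 in KO hippocampus, and 186 ± 10.98 and 185 ± 10.7 in prefrontal cortex, and its striatal level was 2.99-fold (95% interval 2.72 to 3.29) that of prefrontal cortex in WT.

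Of the modulators, Rgs9 (ENSMUSG00000020599.13, chromosome 11, 109225355 to 109298129, minus strand), which speeds GTP hydrolysis by inhibitory G protein alpha subunits, had 367 to 539 CPM (median 424) in the WT libraries and 353 to 615 CPM (median 420.2) in the KO libraries. Elsewhere Rgs9 was at 21.1 ± 8.32 CPM in WT and 20.2 ± 8.77 in KO hippocampus, and 13.6 ± 1.19 and 13.9 ± 1.70 in prefrontal cortex. The striatal level of Rgs9 was 20.3-fold (95% interval 16.5 to 24.99) that of hippocampus, next to 19.9-fold (95% interval 14.9 to 26.5) for Ppp1r1b, and 31.5-fold (95% interval 25.4 to 39.1) that of prefrontal cortex in WT. In KO the excess over hippocampus was 21.7-fold (95% interval 17.1 to 27.4) for Rgs9 and 22.9-fold (95% interval 16.7 to 31.4) for Ppp1r1b, with overlapping intervals. Rasd2 (ENSMUSG00000034472.13, chromosome 8, 75213944 to 75224113, plus strand), which encodes the small GTPase Rhes, had 546 to 804 CPM (median 622) in the WT libraries and 495 to 869 CPM (median 591) in the KO libraries. Elsewhere Rasd2 was at 56.2 ± 10.3 CPM in WT and 56.9 ± 9.03 in KO hippocampus, and 54.01 ± 4.53 and 57.3 ± 5.12 in prefrontal cortex. The gap between the lowest striatal and the highest other library ranged over the 10 genes from 1.84-fold for Arpp21 to 8.14-fold for Rgs9.

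**Figure D1:**
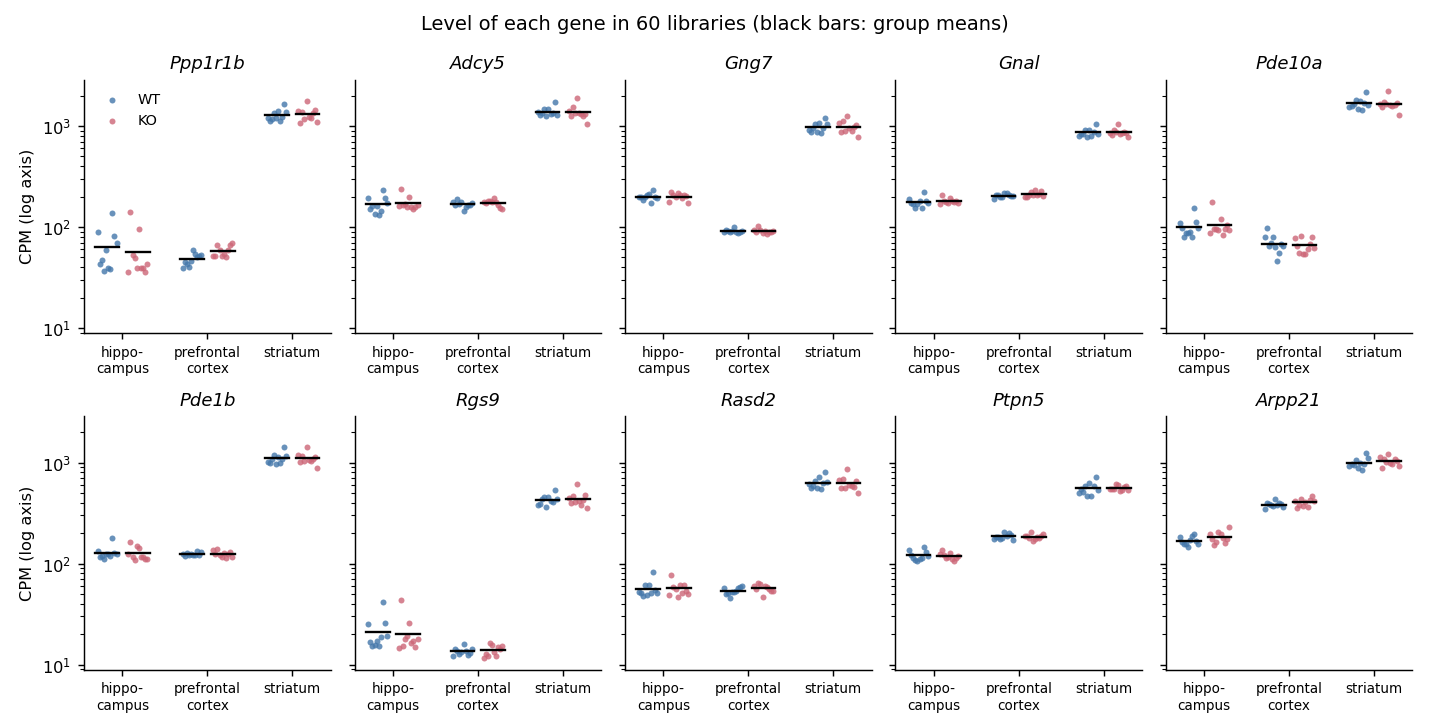
Level of each of the 10 genes in each library, in CPM on a log axis, by region and genotype, with black bars at the means of 10 libraries. The striatal points lie above all others for each gene, and the highest hippocampal points of Ppp1r1b reach 142 CPM.

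Hippocampus and prefrontal cortex were ordered differently from gene to gene. In WT, Gng7 was higher in hippocampus by 1.14 ± 0.053 (log2 ± SE; 2.21-fold; background 5.98%) and Arpp21 was lower by 1.19 ± 0.057 (background 4.16%), and both passed in KO as well (1.13 ± 0.062 and -1.15 ± 0.065, backgrounds 5.68% and 4.06%). Ptpn5 (-0.61 ± 0.066), Gnal (-0.21 ± 0.052), Pde10a (0.54 ± 0.11) and Rgs9 (0.63 ± 0.14) had adjusted p from 9.53e-10 to 0.000690 by edgeR (an adjusted p under 0.05 was reached by 68.5% of the genes) but stayed under 1 log2 unit. Adcy5 (0.0010 ± 0.080), Pde1b (0.046 ± 0.066) and Rasd2 (0.060 ± 0.081) had intervals that spanned 0. Ppp1r1b was at 0.41 ± 0.18 in WT (edgeR adjusted p = 0.0453) and -0.020 ± 0.20 in KO (adjusted p = 0.934). Without the 5 hippocampal libraries with striatal markers these became -0.018 ± 0.11 in WT and -0.47 ± 0.092 in KO. Those 5 were set apart after the values were seen and are the highest in Ppp1r1b. Leaving them out lowers its hippocampal level by selection, so these 2 values are a description with no test.

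The highest hippocampal levels of Ppp1r1b, Rgs9, Pde10a, Adcy5 and Ptpn5 were those of these 5 libraries, while the other genes differed in this. The 5 libraries had 12.9 to 30.1 CPM of Adora2a, an adenosine receptor gene of striatopallidal neurons, against 1.18 to 8.03 in the other 15. The limit of 10 CPM that separates them was chosen after the values were seen. They were also above each of the other 15 for Penk (80.3 to 159 against 17.6 to 46.3 CPM), Drd2, Drd1 and Gpr6. Summed over the 21 medium spiny neuron markers, hippocampal libraries ran from 289 to 647 CPM in WT and from 281 to 604 in KO, with 0 markers at 0, while no striatal library was below 3856. As the libraries were grouped by a striatal marker, the values that follow are a description with no test.

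Ppp1r1b was at 81.1 to 142 CPM in the 5 libraries and at 35.7 to 69.2 in the other 15. Rgs9 was at 25.1 to 43.4 and 14.5 to 19.2 CPM, and Pde10a at 110.0 to 175 and 79.4 to 105. For these 3 genes, Adcy5 and Ptpn5 all 5 libraries lay above all 15. For Gnal 4 of the 5 did, for Rasd2 3, for Gng7 and Pde1b 2 each, and for Arpp21 0. The share of all genes for which all 5 lay above all 15 was not computed, so these counts are no trait of the 10 genes. Expressed as a share of the striatal mean, the excess over the median of the other 15 was largest in WT 8, with a median over the 10 genes of 5.44% (range 2.83% to 7.56%), beside 6.33% over 6 striatal markers, Adora2a, Drd1 and Drd2 among them. In KO 2 the medians were 4.23% and 6.22%, in KO 6 2.22% and 3.48%, in WT 1 1.66% and 2.34%, and in WT 9 0.988% and 2.24%. WT 9 was the lowest of the 5 by both measures. Without the 5 libraries the striatal excess over hippocampus in WT went from 4.32 ± 0.20 to 4.75 ± 0.14 (log2 ± SE) for Ppp1r1b, from 4.34 ± 0.15 to 4.67 ± 0.080 for Rgs9 and from 4.08 ± 0.13 to 4.25 ± 0.12 for Pde10a. In KO it went from 4.52 ± 0.22 to 4.97 ± 0.11 for Ppp1r1b and from 4.44 ± 0.17 to 4.73 ± 0.10 for Rgs9. The order of these genes was not tested.

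**Figure D2:**
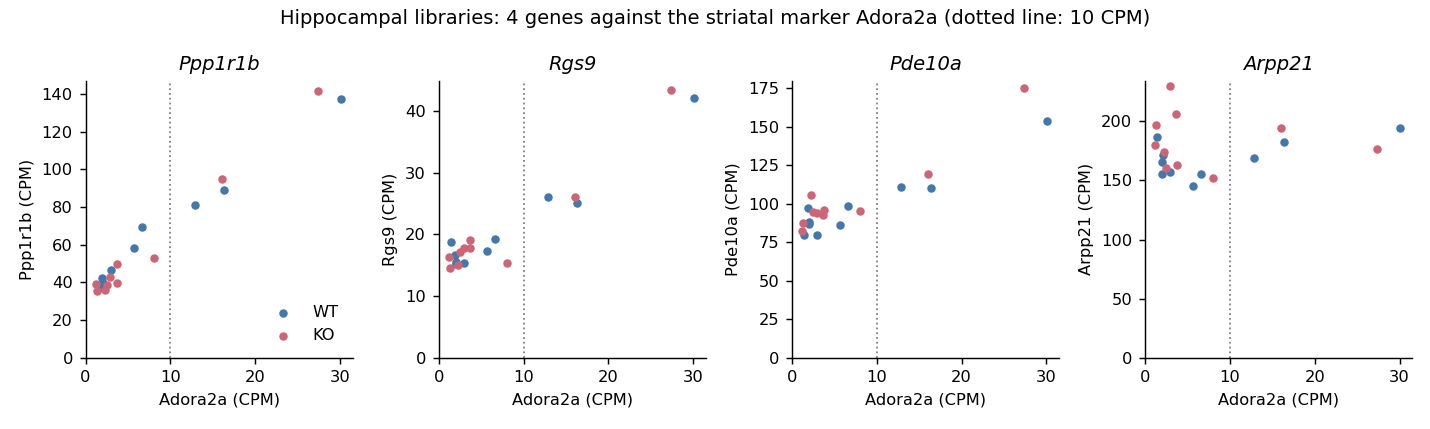
CPM of Ppp1r1b, Rgs9, Pde10a and Arpp21 (y axes) against CPM of Adora2a (x axes) in the 20 hippocampal libraries, coloured by genotype, with a dotted line at 10 CPM of Adora2a. The 5 libraries right of the line are the highest for Ppp1r1b, Rgs9 and Pde10a and lie within the range of the other 15 for Arpp21.

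The levels of the 10 genes did not pass the genotype test in any region. In striatum, where they are highest, 0 of 10 passed (background 0.0514%), in hippocampus 0 of 10 (0.128%), in prefrontal cortex 0 of 10 (0.117%), over the 3 regions summed per genotype and replicate number 0 of 10 (0.162%), and 0 of 10 had a genotype difference that differed between regions (0.0248%; edgeR quasi-likelihood, Benjamini-Hochberg). At an unadjusted p under 0.05 there was 1 of the 10 in prefrontal cortex, Ppp1r1b, and 0 in each other comparison, beside 11.8% of all tested genes in prefrontal cortex, 8.14% in hippocampus, 7.14% in striatum, 10.5% over the 3 regions and 3.96% for the interaction. DESeq2 called 0 of the 10 in each of these comparisons too.

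In striatum the differences, KO minus WT on the log2 scale, lay between -0.019 and 0.059, with a median of 0.01. The 95% confidence intervals of all 10 genes lay within -0.19 and 0.21, so that a change of 1 log2 unit is outside each of them. For the G protein and cyclase genes the differences were 0.0090 ± 0.056 for Gnal, 0.018 ± 0.078 for Gng7 and -0.016 ± 0.082 for Adcy5. The phosphodiesterase genes were at -0.019 ± 0.080 (Pde10a) and -0.0031 ± 0.077 (Pde1b). The kinase targets were at 0.038 ± 0.084 (Ppp1r1b), 0.059 ± 0.064 (Arpp21) and 0.019 ± 0.065 (Ptpn5), and the modulators at 0.036 ± 0.083 (Rgs9) and -0.0084 ± 0.087 (Rasd2). The ranges of KO and WT libraries overlapped for each gene.

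In prefrontal cortex Ppp1r1b was at 39.5 to 59.5 CPM (median 48.02) in WT and 50.8 to 70.05 CPM (median 56.3) in KO. The ranges overlapped, with the lowest KO library above the WT median. The difference was 0.26 ± 0.077 (95% interval 0.096 to 0.42, p = 0.00316), and did not pass over all genes (edgeR adjusted p = 0.162; DESeq2 adjusted p = 0.0708; over all alternatives 0.0708 to 1.0). Olfactory bulb markers moved with genotype in the same libraries: the 10 markers had a median difference of -1.63, 1 of them (Scgn) passed as lower, and their summed level was 39.5 to 199.6 CPM in WT and 35.2 to 112 in KO, with 0 markers at 0. With a score of 4 bulb genes (Eomes, Doc2g, Cdhr1 and Tbx21) in the fit, Ppp1r1b was at 0.18 ± 0.10, and Pde10a went from -0.071 ± 0.11 to 0.15 ± 0.13. Of 19 medium spiny neuron markers tested in prefrontal cortex 0 passed, and with their mean in the fit Ppp1r1b was at 0.27 ± 0.083. The other genes lay between -0.071 and 0.077, and the narrowest interval was that of Gnal (-0.030 to 0.10).

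In hippocampus Ppp1r1b and Rgs9 had the widest intervals of the 10 genes, and both were highest in the 5 libraries with striatal markers. Ppp1r1b was at -0.16 ± 0.30 (95% interval -0.79 to 0.47) and Rgs9 at -0.059 ± 0.22 (-0.52 to 0.41). Leaving out WT 8 moved Ppp1r1b to 0.028, and leaving out KO 2 moved it to -0.42. Without all 5 libraries it was at -0.19 ± 0.14 (edgeR adjusted p = 0.648). Arpp21, for which the 5 libraries lay within the range of the other 15, had the largest positive difference, 0.12 ± 0.068, with 145 to 194 CPM (median 167) in WT and 152 to 229.9 CPM (median 178) in KO. Gng7 was at -0.00065 ± 0.047, with an interval of -0.099 to 0.098. The other genes were between -0.028 (Pde1b) and 0.071 (Pde10a).

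Summed over the regions, the 10 differences ran from 0.0091 (Pde10a) to 0.084 (Arpp21), with a median of 0.03 beside 0.00010 over all genes tested. With the 60 libraries in 1 fit and region as a term they ran from -0.010 to 0.085, with 3 of the 10 negative. Without the replicate numbers of the 5 hippocampal libraries they ran from 0.068 to 0.15. This left out the striatal and prefrontal cortex libraries of these numbers too. Among them was striatal WT 9, the highest WT striatal library for 10 of the 10 genes. The part of each region in this change was not tested. Either way 0 of 10 passed. Striatal reads make up most of these sums, and the 10 genes varied together there, so the 10 signs are not independent. Arpp21 had the smallest p, at 0.084 ± 0.042 (95% interval -0.0038 to 0.17, p = 0.0598, edgeR adjusted p = 0.491). Without those replicate numbers it was at 0.14 ± 0.039 (adjusted p = 0.343). The smallest interaction p was that of Ppp1r1b, 0.299, with an adjusted p of 1.0.

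**Figure D3:**
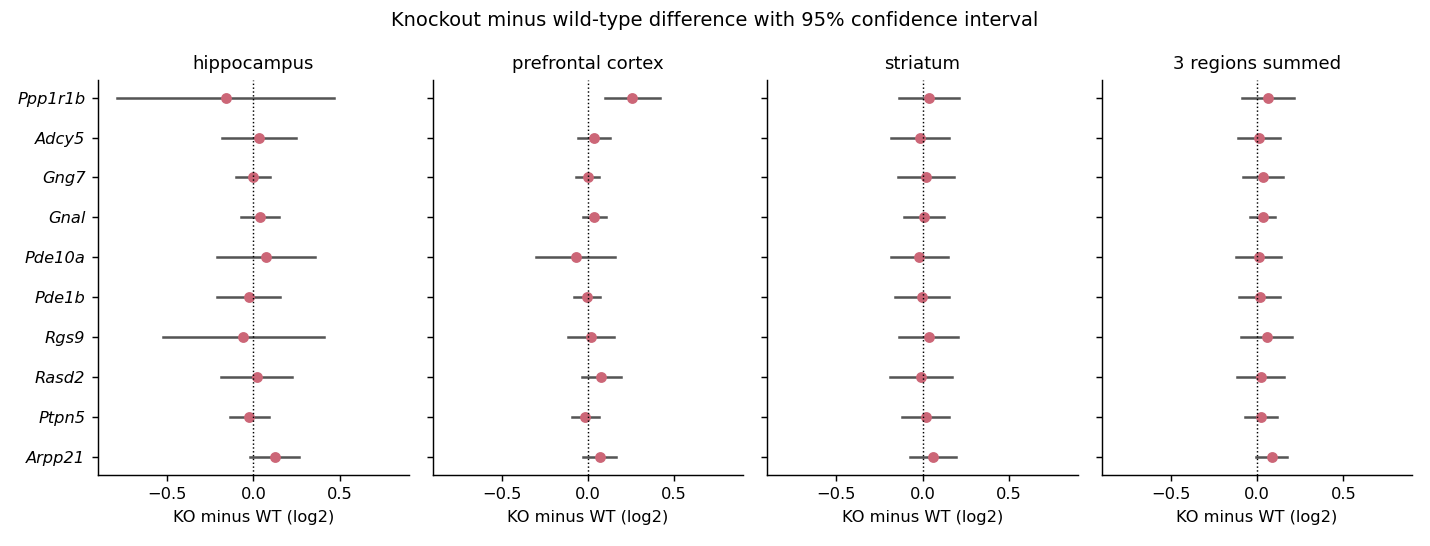
Difference between KO and WT (points, log2, KO minus WT) with 95% confidence intervals (bars) for the 10 genes in each region and over the summed regions. The intervals of Ppp1r1b and Rgs9 are widest in hippocampus, and the interval of Ppp1r1b in prefrontal cortex, 0.096 to 0.42, is the only 1 drawn that does not reach 0.

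Within the striatum the 10 genes varied together from library to library. WT 9 was the highest of the WT libraries for 10 of the 10 genes, and KO 5 the highest of the KO libraries for 9, Ptpn5 being the other. KO 10 was the lowest of all 20 libraries for 7. Adora2a followed the same libraries, with 347 CPM in WT 9, 399 in KO 5 and 212 in KO 10. Each gene was set against the mean log2 CPM of the 21 medium spiny neuron markers, with both centred on the genotype mean, and 100000 permutations were drawn within genotype (30 relations over the 3 regions, Benjamini-Hochberg adjusted). In striatum (20 libraries) 10 of 10 relations had a permutation adjusted p under 0.05. The share of all genes with such a relation was not computed in any region, so the count does not set the 10 genes apart. Pearson's r ran from 0.697 for Ptpn5 (Spearman's rho 0.666, permutation p = 0.000450, adjusted 0.00112) to 0.957 for Pde1b (rho 0.931, permutation p = 1e-05, adjusted 3.33e-05), 1e-05 being the smallest that the permutations can give. Without KO 5 and WT 9, the farthest from the median, r ran from 0.577 to 0.906. Adcy5 lost most with them, from 0.838 to 0.620.

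In prefrontal cortex 0 of 10 relations had an adjusted permutation p under 0.05, with r from -0.118 (Pde10a) to 0.467 (Rasd2). In hippocampus r was computed over the 15 libraries under 10 CPM of Adora2a, a limit chosen after the values were seen. Adora2a is itself among the medium spiny neuron markers, so the hippocampal p-values hold only for this selected set of libraries. There Ppp1r1b (r = 0.922, rho = 0.904, permutation adjusted p = 3.33e-05) and Adcy5 (r = 0.811, rho = 0.732, adjusted p = 0.000491) followed the markers. The other 8 ran from -0.280 (Rasd2) to 0.542 (Rgs9). WT 10 and KO 3, with 6.61 and 8.03 CPM of Adora2a, were the farthest from the median. Without them r was 0.855 for Ppp1r1b and 0.741 for Adcy5, and from -0.483 (Rasd2) to 0.631 (Rgs9) for the other 8. With the marker mean in the striatal genotype fit, the SEs ran from 0.03 to 0.05, against 0.056 to 0.087 without it, and the differences lay between -0.056 (Adcy5) and 0.035 (Arpp21), with 0 of 10 passing. The part of the marker level in the shared variation was not tested beyond this fit.

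**Figure D4:**
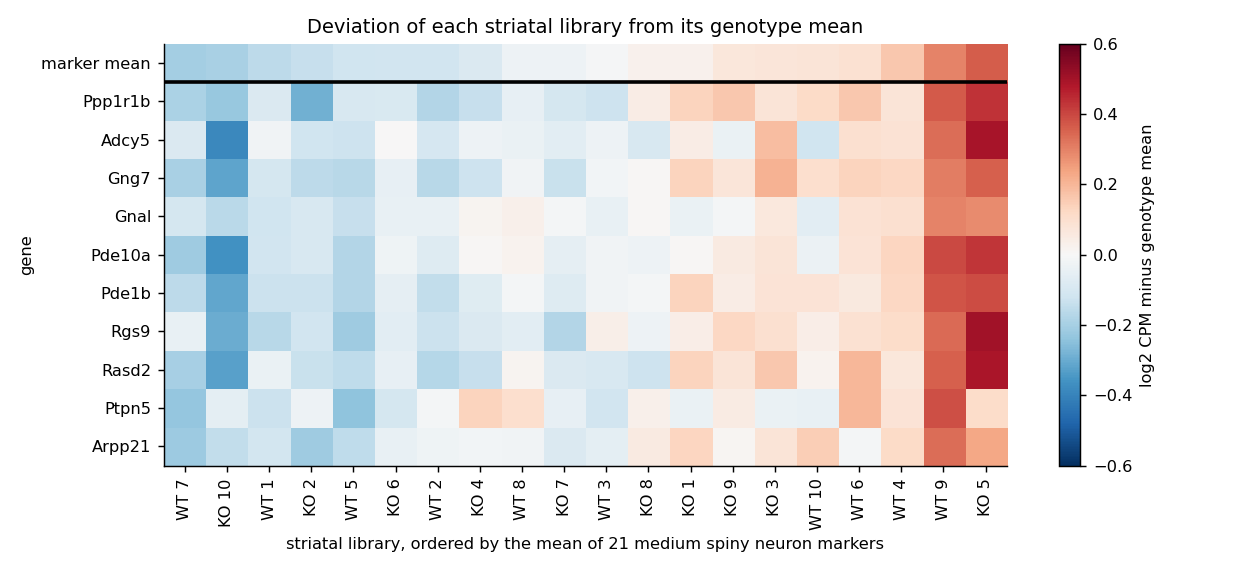
Deviation of each striatal library (columns) from its genotype mean in log2 CPM, for the mean of the 21 medium spiny neuron markers (top row) and the 10 genes (rows below), with columns ordered by the marker mean. Red cells gather in WT 9 and KO 5 on the right and blue cells in KO 10 and WT 7 on the left.

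The genes whose log2 CPM followed the mean of the 10 most closely over all 60 libraries were Rasgrp2 (r = 0.997), Rarb (r = 0.996), Slc32a1 (r = 0.995), Drd1 (r = 0.994) and Prkch (r = 0.993). Rasgrp2 encodes a calcium-regulated exchange factor for Rap GTPases and Drd1 the dopamine D1 receptor. These correlations are a description: they rest on the difference between striatum and the other regions, which the 60 libraries share. With the mean of each region and genotype removed, and with the 5 hippocampal libraries included, the closest were Cpne5 (r = 0.878), Cd4 (r = 0.841), Penk (r = 0.840), Rasgrp2 (r = 0.838) and Drd2 (r = 0.827). Rasgrp2 was in both lists, at 158 CPM in striatum, 10.2 in hippocampus and 10.8 in prefrontal cortex.

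Some of the other genes of the pathway were also higher in striatum, and some were lower. Of 104 measured and tested genes in 8 lists, 28 were higher and 4 lower in WT striatum than in hippocampus, and 18 were higher and 7 lower than in prefrontal cortex (backgrounds 5.12%, 5.06%, 7.07% and 4.54%). The 16 receptor genes tested came from a list chosen as striatal, so their count is a description and no support. Of them, 10 were higher in each contrast, and these 10 are part of the 28 and of the 18. Among them were Drd2 (5.43 against hippocampus and 7.27 against prefrontal cortex) and Adora2a (5.11 and 6.83), with Gpr6 at 5.80 against prefrontal cortex. Several of these receptors are also among the medium spiny neuron markers. Htr4, a serotonin receptor gene, was lower than in hippocampus (-1.43) and higher than in prefrontal cortex (2.54). Against prefrontal cortex the other lists were mixed. Higher were 2 G protein genes, 3 phosphodiesterases, 1 RGS gene, 1 gene of the protein kinase A list and 1 effector. Lower were 2 cyclases, 1 phosphodiesterase, 1 RGS gene, 2 genes of the protein kinase A list and 1 phosphatase gene. No striatal excess beyond the share over all genes is claimed for these lists against prefrontal cortex.

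Of 15 G protein genes and partners, 3 were higher and 1 lower than in hippocampus, and 2 higher than in prefrontal cortex. Ric8b, whose product assists the folding of stimulatory alpha subunits, was at 1.70 and 1.58, and the beta subunit genes Gnb4 at 1.60 and 1.04 and Gnb5 at 1.18 against hippocampus. The lower gene was Gng2, a gamma subunit (-1.04). Gnas, the stimulatory alpha subunit gene most like Gnal, was at -0.57 and -0.77 and did not reach 1 log2 unit. The other adenylyl cyclases were the only list with no higher member in either contrast: of 7, 0 passed against hippocampus and 2 were lower than in prefrontal cortex, Adcy2 (-1.14) and Adcy8 (-1.03). Adcy5, by contrast, was at 3.05 and 3.05.

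Of 11 other phosphodiesterases, 4 were higher than in hippocampus and 3 higher and 1 lower than in prefrontal cortex. Pde7b, specific for cyclic AMP, was at 3.17 and 2.83, Pde1c at 2.01 and 2.25, and Pde8a at 1.001 and 1.83. Pde4b was at 1.05 against hippocampus. Pde1a, a relative of Pde1b, was the lower one (-1.001). Of 11 other RGS genes, 5 were higher and 1 lower than in hippocampus, and 1 higher and 1 lower than in prefrontal cortex: Rgs4 was at 2.18 against hippocampus, Rgs20 at 1.70 and Rgs2 at 1.59 and 1.10, while Rgs9bp, named for its binding to Rgs9, was lower (-1.25 and -1.31). Rgs9bp did not pass the count filter of the striatal genotype test, so its striatal counts were low.

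Of 12 protein kinase A subunits, anchors and inhibitors, 3 were higher than in hippocampus, Akap9 (1.75), Prkar2b (1.62) and Akap5 (1.41). Against prefrontal cortex Akap9 was higher (1.77) and Prkar1b (-1.17) and Pkib (-1.07) were lower. Of 18 phosphatase and DARPP-32 kinase genes, Arpp19 (2.33) and Ppp1ca (1.05) were higher than in hippocampus, and Dusp6 was lower than in prefrontal cortex (-1.12). Of 14 other effectors, Rasgrp2 was higher in both contrasts (3.92 and 3.82) and Rasd1, the closest relative of Rasd2, was lower than in hippocampus (-2.59). Between hippocampus and prefrontal cortex, 5 of the 104 were higher and 7 lower in WT, shares near those over all genes tested (5.98% and 4.16%), among them Htr4 (3.97), Rasd1 (2.86), Rgs6 (-2.16), Arpp19 (-1.91) and Rgs4 (-1.80). In KO 27 were higher in striatum than in hippocampus (background 5.76%) and 18 higher than in prefrontal cortex (7.64%). Lower in KO striatum were 6 against hippocampus and 7 against prefrontal cortex, with no share over all genes given for these. Between hippocampus and prefrontal cortex 6 were higher (5.68%) and 7 lower (4.06%) in KO.

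**Figure D5:**
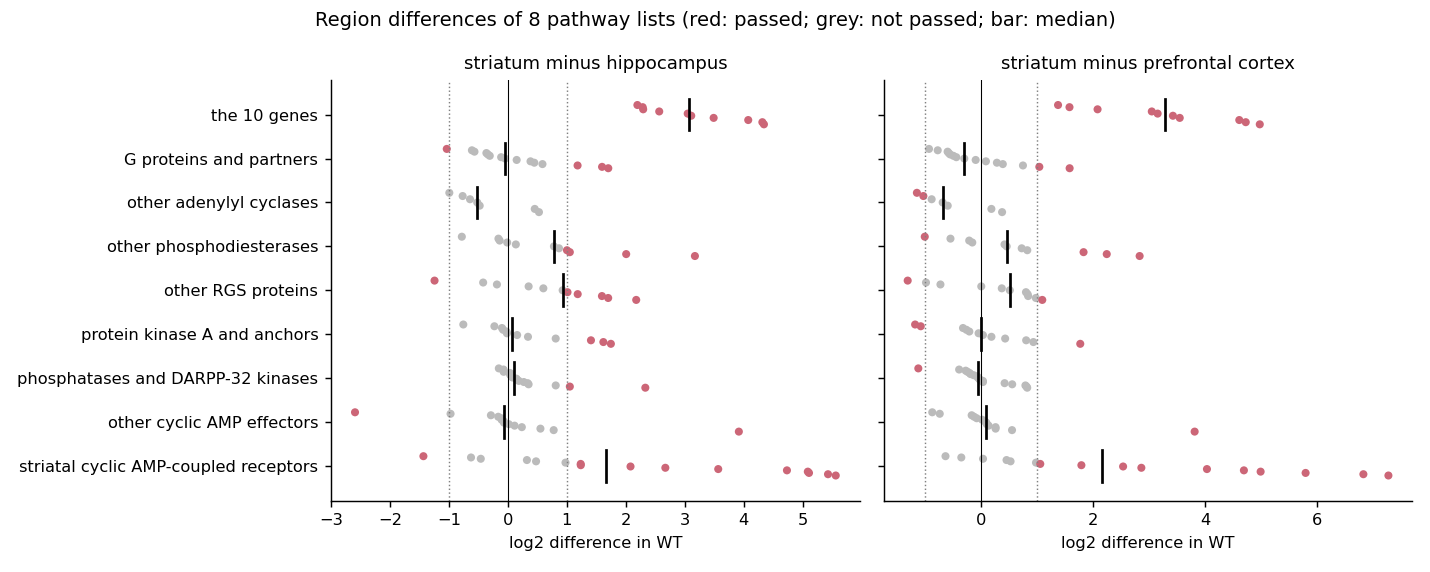
Differences in WT between striatum and hippocampus (left) and prefrontal cortex (right), in log2 units, for the 10 genes (top row) and 8 lists of other pathway genes (1 point per gene, red where it passed, black bar at the median, dotted lines at 1 log2 unit either way). All 10 genes lie right of the upper line in both panels, while of the other adenylyl cyclases none does.

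Between the genotypes, 0 of the 103 pathway genes tested in each region and 0 of the 104 tested over the summed regions and for the interaction passed (edgeR quasi-likelihood, Benjamini-Hochberg over all genes). The gene of smallest p in each list is given as a value, in the order G proteins, cyclases, phosphodiesterases, RGS proteins, protein kinase A, phosphatases and kinases, effectors, receptors. In striatum these were Gnai2 (0.049 ± 0.024), Adcy9 (-0.094 ± 0.055), Pde1c (-0.20 ± 0.059), Rgs10 (0.095 ± 0.045), Prkacb (-0.072 ± 0.040), Ppp1cc (0.084 ± 0.052), Rasd1 (0.64 ± 0.39) and Gpr3 (0.39 ± 0.15), with edgeR adjusted p from 0.484 to 0.744. In prefrontal cortex they were Gng4 (-0.42 ± 0.16), Adcy8 (-0.14 ± 0.055), Pde1c (-0.29 ± 0.094), Rgs20 (0.17 ± 0.038), Pkib (-0.15 ± 0.056), Ppp1r9b (0.094 ± 0.032), Hcn2 (0.10 ± 0.040) and Adora1 (0.10 ± 0.030), with adjusted p from 0.0845 (Rgs20) to 0.319. In hippocampus they were Gnai1 (0.057 ± 0.033), Adcy7 (-0.15 ± 0.091), Pde7a (0.078 ± 0.047), Rgs8 (0.093 ± 0.043), Prkar2b (0.11 ± 0.044), Ppp2cb (0.051 ± 0.025), Creb1 (0.11 ± 0.045) and Cnr1 (0.18 ± 0.046), with adjusted p from 0.249 (Cnr1, the cannabinoid receptor gene) to 0.695. Over the summed regions they were Gng4 (-0.30 ± 0.13), Adcy7 (-0.055 ± 0.040), Pde1c (-0.16 ± 0.044), Rgs20 (0.14 ± 0.046), Pkib (-0.092 ± 0.044), Ppp2cb (0.040 ± 0.017), Creb1 (0.052 ± 0.024) and Adora1 (0.052 ± 0.024), with adjusted p from 0.199 to 0.654. For the interaction the smallest p values were Gnai1 0.254, Adcy3 0.107, Pde1c 0.0436, Rgs2 0.182, Prkar1b 0.0817, Cdk5r1 0.0700, Rapgef4 0.0677, Cnr1 0.0118, each with an edgeR adjusted p of 1.0. Pde1c was named in striatum, in prefrontal cortex and over the summed regions, with a negative difference each time, and did not pass in any.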

How the data were processed

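RNA was measured by sequencing in 60 mouse brain libraries, 10 per genotype and region. The deposited table holds raw counts per gene; per the submitters' processing notes the authors used FastQC 0.11.4, cutadapt 1.16, STAR 2.5.2b, bedtools and DESeq2 1.16.1 with GRCm38, and neither their roles nor the strand setting was stated in the sources used here. Reads of overlapping genes can therefore be shared. The 10 genes and all lists were chosen with earlier results of these data known. Named by rule were the 10 genes, Adgrl3, up to 3 genes per pathway list with the largest region difference among those that passed, the gene of smallest p per list between genotypes, and the 5 genes per measure that correlated best. A gene that the rule names is not reported here. Gnas, Gng2, Pde1a, the other values of a gene already named, Htr4 against striatum and the hippocampus to cortex selection were chosen after the values were seen.

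Counts were scaled by TMM, filtered with filterByExpr and tested with edgeR 4.0.16 (quasi-likelihood, robust; R 4.3.3, limma 3.58.1), with Benjamini-Hochberg adjusted p under 0.05 over all genes, and for regions also at least 1 log2 unit. The script was tested on simulated data. DESeq2 1.42.0, other scaling, no filter, covariates, blocks and left-out libraries were alternatives, and the Adora2a limit was chosen after seeing the data. The SE and 95% interval come from the edgeR fit. Replicates differed beyond sampling noise (chi-square per degree of freedom 5.51 to 91.6 over 270 pairs). The labels do not say that libraries of a group came from separate animals, so p-values measure the spread between these samples, which may be technical. Promoter windows are from RefSeq (GRCm38.p6).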

Additional observations from a re-analysis of the deposited data

Results flagged for a closer look

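Among the 60 sets of 10 libraries (10 genes in 6 groups), 19 held a highest library that lay far from the next, by Dixon's ratio at its 95% critical value. Chance alone marks about 1 set in 20, and sets of 1 group are not independent, since the 10 genes share their libraries. In WT hippocampus, library 8 stood out for Ppp1r1b (137), Gnal (221), Pde10a (153), Pde1b (180.1), Rgs9 (42.05) and Rasd2 (81.96), in CPM. In WT striatum, library 9 stood out for Adcy5 (1743), Gnal (1056), Pde10a (2190.0) and Pde1b (1429), in CPM. In WT prefrontal cortex, library 6 stood out for Gng7 (101), in CPM. In KO prefrontal cortex, library 3 stood out for Gng7 (103), in CPM. In KO striatum, library 5 stood out for Gnal (1054), Pde10a (2204), Rgs9 (615) and Rasd2 (869), in CPM. In KO hippocampus, library 2 stood out for Pde10a (175), Rgs9 (43.4) and Rasd2 (77.8), in CPM. In the hippocampal libraries WT 8 and KO 2 the striatal marker Adora2a (30.1 and 27.4 CPM) was the highest of its group as well, and in the striatal libraries WT 9 and KO 5 Adora2a (347 and 399 CPM) was too. Its part in these values was not tested.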

How the results depend on the processing

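The call of each of the 10 genes, in each genotype and region comparison, was the same under every alternative run (DESeq2, RLE size factors, the low-count filter removed, the replicate block, all libraries in 1 fit, marker covariates, libraries left out). Counts over all genes moved more. For hippocampus 20 genes passed, and 5 with the replicate block and 47 by DESeq2. For prefrontal cortex 18 passed, and 10 with the block, 222 by DESeq2, 208 with all 60 libraries in 1 fit and 6 with the bulb score as a covariate. For striatum 8 passed, and 3 with the block, 26 by DESeq2 and 22 with all 60 libraries. For the summed regions 27 passed, and 11 with the block, 133 by DESeq2 and 650 with the 60 libraries and region as a term. That last fit took libraries of the same number as independent, so its count may be too high. Without the replicate numbers of the 5 hippocampal libraries 8 passed. For the interaction 4 passed, and 1 with RLE size factors, 1 with no filter, 0 with the block, 14 by DESeq2 and 0 without those libraries. Leaving out 1 replicate gave 12 to 26 genes in hippocampus, 9 to 68 in prefrontal cortex, 5 to 15 in striatum and 19 to 48 over the summed regions. The cause was not tested.

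The replicate numbers were not taken to pair KO with WT libraries: deviations of same-numbered KO and WT libraries correlated at -0.53 to 0.32, with 5 of 30 over 0.1. Those of same-numbered regions within a genotype correlated at -0.19 to 0.44, with 56 of 60 over 0.1 and 49 of them highest for the library's own number. The sums over the 3 regions joined libraries of the same number, which the labels do not tie to 1 animal. The replicate block changed no call of the 10 genes.

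Of the log2 differences of the 10 genes, 29 changed sign under an alternative and 75 on leaving out a replicate. None had met the call rule of its comparison, though Ppp1r1b between hippocampus and prefrontal cortex in WT (0.41, under 1 log2 unit) had an edgeR adjusted p of 0.0453. It was at -0.018 without the 5 hippocampal libraries. 60 libraries with region as a second term gave Pde10a -0.0046, Pde1b -0.010 and Ptpn5 -0.0049 for summed regions, KO minus WT. DESeq2 gave Gng7 0.0013 for hippocampus, KO minus WT. DESeq2 gave Adcy5 -0.016 for hippocampus minus prefrontal cortex in WT. RLE size factors gave Gng7 0.00051 for hippocampus, KO minus WT. RLE size factors gave Adcy5 -0.016 for hippocampus minus prefrontal cortex in WT. All 60 libraries in 1 fit gave Gng7 0.00051 for hippocampus, KO minus WT. All 60 libraries in 1 fit gave Gng7 0.0043 and Pde1b 0.0014 for prefrontal cortex, KO minus WT. The marker mean as a covariate gave Gng7 0.0044 for hippocampus, KO minus WT. The marker mean as a covariate gave Gng7 0.0056 and Pde1b 0.016 for prefrontal cortex, KO minus WT. The marker mean as a covariate gave Ppp1r1b -0.0029, Gng7 -0.018, Gnal -0.013 and Rgs9 -0.0064 for striatum, KO minus WT. No filter on low counts gave Adcy5 -0.010 for hippocampus minus prefrontal cortex in WT. The bulb score as a covariate gave Pde10a 0.15, Rgs9 -0.036 and Ptpn5 0.0056 for prefrontal cortex, KO minus WT. Replicate block gave Adcy5 -0.013 for hippocampus minus prefrontal cortex in WT. The 5 hippocampal libraries left out gave Pde1b -0.070 for hippocampus minus prefrontal cortex in KO. The 5 hippocampal libraries left out gave Gng7 0.0016 and Ptpn5 0.026 for hippocampus, KO minus WT. The 5 hippocampal libraries left out gave Adcy5 -0.15, Ppp1r1b -0.018, Pde1b -0.048 and Rasd2 -0.019 for hippocampus minus prefrontal cortex in WT. Leaving out 1 replicate gave, for hippocampus, KO minus WT, Adcy5 -0.030 to 0.094, Gng7 -0.025 to 0.022, Pde10a -0.044 to 0.16, Pde1b -0.079 to 0.034, Ppp1r1b -0.42 to 0.028, Ptpn5 -0.047 to 0.0068, Rasd2 -0.044 to 0.089 and Rgs9 -0.26 to 0.10. Leaving out 1 replicate gave, for prefrontal cortex, KO minus WT, Gng7 -0.022 to 0.016, Pde1b -0.022 to 0.0077, Ptpn5 -0.032 to 0.0020 and Rgs9 -0.0082 to 0.051. Leaving out 1 replicate gave, for striatum, KO minus WT, Adcy5 -0.081 to 0.028, Gnal -0.026 to 0.047, Gng7 -0.026 to 0.058, Pde10a -0.074 to 0.034, Pde1b -0.052 to 0.046, Ppp1r1b -0.017 to 0.086, Ptpn5 -0.0046 to 0.070, Rasd2 -0.072 to 0.038 and Rgs9 -0.030 to 0.080. Leaving out 1 replicate gave, for summed regions, KO minus WT, Adcy5 -0.030 to 0.043, Pde10a -0.028 to 0.049, Pde1b -0.018 to 0.047 and Rasd2 -0.019 to 0.054. The cause was not tested. The effect of depth was not tested; the smallest count of these genes in a library was 501.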
